A study of Mus musculus with 10 samples.

Results

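The comparison described here sets mRNA libraries labelled leptotene/zygotene spermatocytes against libraries of pre-meiotic material, in mice with and without Ago4. Leptotene and zygotene are the opening stages of meiotic prophase, and the comparison asks which transcripts separate them from the testis before meiosis. Genes were chosen by 1 rule: 1 FPKM (fragments counted per transcript length and scaled by the fragments mapped in the library) or more in any of the 4 libraries. This kept 20339 of 36806 genes, or 55.3%.

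The leptotene/zygotene libraries came from cells of mice aged 70 days, 1 library Ago4-/- and 1 Ago4+/+, both on the C57BL/6 strain. The pre-meiotic libraries are a pair of the same 2 genotypes and the same strain. They are taken here as the whole testes of mice aged 8 days, because no other table is left for that age, and no label states it. Whole testis holds somatic cells beside the germ cells, and on that reading the mice differed in age too. Age, cell type and purification therefore differ between the stages and cannot be told apart from the stage. The series has 10 libraries in all. Those of pachytene spermatocytes and of testes aged 3 days are used here as side values, and the small RNA libraries are not analysed here.

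Each table gives a pair of FPKM columns, and no source says which column holds which genotype. The columns are therefore called library 1 and library 2 of a stage, and each stage has 1 library per genotype and no replicate within a genotype. Total read numbers are not given, so depth is unknown and no counting interval could be set. The tables were normalized separately by the authors, so no test was made across them. A gene is called higher or lower below where both leptotene/zygotene values lay on the same side of both pre-meiotic values and the means differed at least 2-fold. The log2 ratio is that of the mean leptotene/zygotene FPKM over the mean pre-meiotic FPKM, with 0.1 FPKM added to each.

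Male germ cells divide as spermatogonia, enter meiosis when retinoic acid switches on genes such as Stra8, and then break, pair and recombine their chromosomes. In leptotene the chromosomes form cohesin-based axes and are cut by Spo11, and in zygotene the synaptonemal complex zips the homologues together. Pachytene cells finish recombination and start a large programme of testis-specific genes. Round and elongating spermatids follow, and they replace histones by transition proteins and protamines and build the acrosome and the tail.

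Before any difference, the label of the cells was set against their markers, and the data went against it. Spermatid markers led the libraries labelled leptotene/zygotene. Among entries with an ordinary gene symbol, Tnp1, Prm2, Prm1, Tnp2 and Odf2 had the highest FPKM in both libraries. Entries named by a clone or a microRNA stood among and above them and are not described here. The summed level of 6 spermatid markers (Prm1, Prm2, Tnp1, Tnp2, Acrv1 and Odf1) was 2.43 and 1.13 FPKM at day 3, 66.7 and 63.1 FPKM in the pre-meiotic libraries, 47639 and 56526 FPKM in the leptotene/zygotene libraries and 7273 and 9368 FPKM in the pachytene libraries. It was therefore several times higher in the libraries labelled with the earlier stage of meiosis than in those labelled pachytene.

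The 8 markers of leptotene and zygotene themselves (Sycp3, Sycp1, Dmc1, Spo11, Meiob, Hormad1, Prdm9 and Smc1b) told little between the stages. They summed to 26.0 and 19.1 FPKM at day 3, 284 and 169 FPKM in pre-meiotic material, 261 and 220 FPKM in the leptotene/zygotene libraries and 492 and 429 FPKM in the pachytene libraries. The pre-meiotic and leptotene/zygotene values overlapped. Markers of somatic cells were low in the leptotene/zygotene libraries. The summed Sertoli markers (6 of 7 listed were found) stood at 60.02 and 44.0 FPKM there, against 2393 and 2506 FPKM in pre-meiotic material, and Amh was at 0 in library 2.

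All 5 Leydig markers were lower, and they summed to 12.4 and 12.8 FPKM in the leptotene/zygotene libraries, against 404 and 406 FPKM in pre-meiotic material. All 4 myoid, 4 endothelial and 5 stroma markers were lower as well. All 7 markers of spermatogonia were lower, with sums of 29.6 and 25.8 FPKM in the leptotene/zygotene libraries, against 598 and 547 FPKM in pre-meiotic material. For several somatic cell types the libraries of the stage differed, with library 2 higher. Myoid markers summed to 5.43 and 23.8 FPKM in the leptotene/zygotene libraries, against 479 and 510 FPKM in pre-meiotic material. Stroma markers summed to 8.07 and 21.2 FPKM in the leptotene/zygotene libraries, against 1379 and 1739 FPKM in pre-meiotic material. Endothelial markers summed to 2.21 and 5.85 FPKM in the leptotene/zygotene libraries, against 44.1 and 51.2 FPKM in pre-meiotic material. In these the stages did not overlap, while macrophage sums did. Macrophage markers, of which 3 of 5 were lower and 1 was higher, summed to 7.85 and 45.3 FPKM in the leptotene/zygotene libraries, against 29.6 and 44.0 FPKM in pre-meiotic material, with Cd68 and Lyz2 at 0 in library 1. Erythrocyte markers, of which 2 of 4 were lower, summed to 26.5 and 212 FPKM in the leptotene/zygotene libraries, against 289 and 453 FPKM in pre-meiotic material. Every result below describes the libraries as labelled, and which cells gave each library was not tested.

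**Figure D1:**
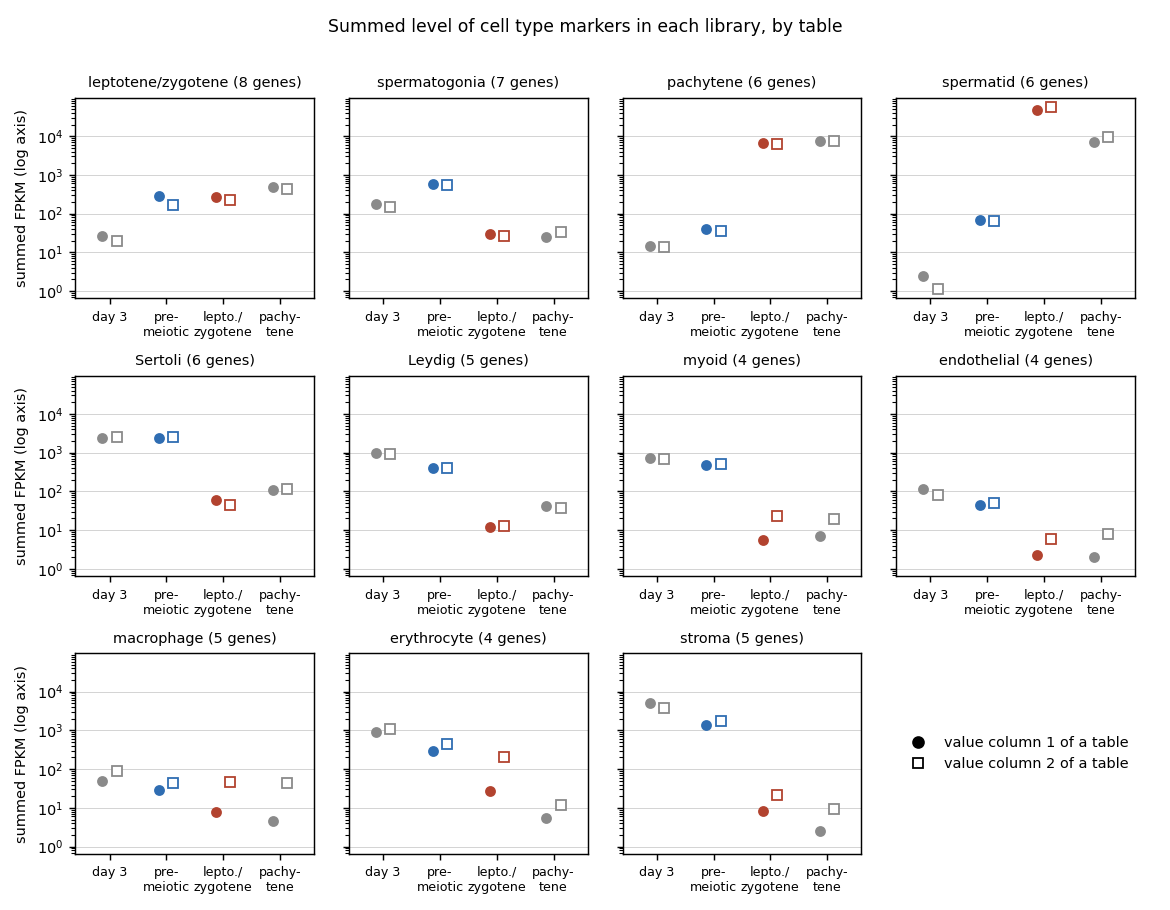
Summed FPKM (log axis) of the marker genes of 11 cell types in each library, in the order day 3, pre-meiotic, leptotene/zygotene and pachytene; filled circles are library 1 and open squares library 2 of each table. The spermatid panel peaks in the leptotene/zygotene libraries at 47639 and 56526 FPKM, and the Sertoli, Leydig, myoid and stroma panels lie lower there and in pachytene than in the other libraries.

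Ago4 (Eif2c4 in the tables, chromosome 4, 126166784 to 126210716 in a build that no source here names) is the deleted gene and a partner of small RNAs. Its level was 1.67 and 3.26 FPKM in the leptotene/zygotene libraries, against 2.53 and 3.34 FPKM in the pre-meiotic libraries. The stages overlapped, with a log2 ratio of -0.24. In the authors' deposited table its leptotene/zygotene columns differed at q = 0.0385, and the pre-meiotic columns at q = 0.672. Across all genes, the authors' deposited table had q of 0.05 or less for 2.29% of those tested between the leptotene/zygotene columns and for 1.26% between the pre-meiotic columns. No source here says which part of Ago4 the deletion removes, so these levels check no label.

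Over all 20339 genes, 5129 were higher in the leptotene/zygotene libraries, which is 25.2%, and 10669 were lower, which is 52.5%. Without the demand for a 2-fold difference, both values lay above both pre-meiotic values for 30.2% of genes and below them for 60.1%. The median log2 ratio was -1.34, with quartiles at -3.14 and 1.28. The distance between the stages was much wider than that between the libraries of a stage. The median absolute log2 difference between library 2 and library 1 was 0.31 within leptotene/zygotene and 0.20 within pre-meiotic material, while the median absolute log2 ratio between the stages was 2.64. With the median of all genes subtracted from each ratio, the value between the stages was 2.06. The stages were normalized separately, so the distance between them also holds that step. The libraries of a stage differ in genotype, so the spread between them is not that of replicates.

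A few genes took much of the leptotene/zygotene signal. The 10 genes of highest FPKM held 15.6% and 18.6% of the summed FPKM in the leptotene/zygotene libraries, against 8.34% and 6.79% in the pre-meiotic libraries. The FPKM of all other genes is read against that. After each column was divided by its median ratio to the geometric mean of the 4, a step that moves the log2 ratio of a well expressed gene by about 1.105 and that of a low one by less, because of the 0.1 FPKM added, 33.6% of genes were higher and 38.4% lower. The share of higher genes among those called was 32.5% as deposited and 46.7% after that step. The medians and counts of the lists below are to be read against the median of -1.34 and the shares of 25.2% higher and 52.5% lower over all genes, and a list near them does not stand apart from the typical gene. In bulk RNA, fewer cells of a type and less RNA per cell cannot be told apart.

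The 15 highest ratios among ordinary gene symbols with a mean of 5 FPKM or more in either stage ran from 9.95 to 10.91. Prm2, which packs sperm DNA (chromosome 16, 10791475 to 10792198 in the tables' build), had 14183 and 18800 FPKM in the leptotene/zygotene libraries, against 16.6 FPKM in each pre-meiotic library, a 994-fold difference. Ropn1, a protein of the fibrous sheath of the tail, had 601 and 525 FPKM in the leptotene/zygotene libraries, against 0 and 0.628 FPKM in pre-meiotic material. Sun5, which anchors the sperm head to the tail, had 128 and 92.9 FPKM in the leptotene/zygotene libraries and was listed at 0 in both pre-meiotic libraries, so no fold is given.

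The largest log2 ratio, 10.91, belonged to Spatc1, a centrosome protein of spermatids, with 175 and 211 FPKM in the leptotene/zygotene libraries and a listed 0 in both pre-meiotic libraries. Cmtm2a, a testis transmembrane protein, had 3604 and 3304 FPKM in the leptotene/zygotene libraries, against 3.18 and 1.87 FPKM in pre-meiotic material. Spaca3, an acrosome protein of the lysozyme family, had 125 and 84.4 FPKM in the leptotene/zygotene libraries and was listed at 0 in both pre-meiotic libraries. The others of the 15 highest were Fam24a, Ccdc54, Tppp2, Ccdc70, Fam71f1, Lelp1, Ms4a5, Fscn3 and Prss58, with log2 ratios from 9.95 to 10.74. Among all higher genes, 952 were listed at 0 in both pre-meiotic libraries, and their ratios rest on the 0.1 FPKM that was added.

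The 15 lowest ratios by the same rule included imprinted genes, matrix genes and a Sertoli hormone. Dlk1, an imprinted inhibitor of differentiation, had 0.486 and 0.929 FPKM in the leptotene/zygotene libraries, against 234 and 263 FPKM in pre-meiotic material, a 352-fold difference. Col3a1, a fibrillar collagen, had 0.741 and 1.22 FPKM in the leptotene/zygotene libraries, against 335 and 411 FPKM in pre-meiotic material. Amh, the anti-Müllerian hormone of immature Sertoli cells, had 0.376 FPKM and a listed 0 in the leptotene/zygotene libraries, against 75.6 and 98.3 FPKM in pre-meiotic material.

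Ptprv, a receptor phosphatase, headed the low side with a log2 ratio of -9.18. It was listed at 0 in both leptotene/zygotene libraries, against 61.9 and 53.6 FPKM in pre-meiotic material. Eln, the elastin of elastic fibres, had 0.231 and 0.494 FPKM in the leptotene/zygotene libraries, against 126 and 171 FPKM in pre-meiotic material. H19, an imprinted non-coding RNA, had 0.547 and 2.03 FPKM in the leptotene/zygotene libraries, against 372 and 389 FPKM in pre-meiotic material. Prss35, Lgals7, Dpm3, Bmyc, Kctd14, Bcan, Plagl1, Mfap4 and Ccdc120 made up the rest of the 15 lowest.

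Genes beside the 2-fold limit show what a call rests on. The nuclear receptor gene Nr4a1 was just inside, with 23.2 and 23.3 FPKM in the leptotene/zygotene libraries, against 9.68 and 13.5 FPKM in pre-meiotic material, and Rbm14 was just outside, with 120 and 129 FPKM in leptotene/zygotene, against 59.9 and 65.0 FPKM in pre-meiotic material. On the low side Hnrnpu was just inside, with 281 and 265 FPKM in leptotene/zygotene, against 539 and 554 FPKM in pre-meiotic material. Zbtb17 was just outside, with 10.9 and 11.04 FPKM in leptotene/zygotene, against 22.1 and 22.0 FPKM in pre-meiotic material.

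All 34 spermatid genes examined were higher in the leptotene/zygotene libraries, with a median log2 ratio of 8.79. Together they held 8.04% and 9.06% of the summed FPKM in the leptotene/zygotene libraries, against 0.0400% and 0.0374% in the pre-meiotic libraries. Tnp1, a transition protein that replaces histones before protamines, had 15006 and 17166 FPKM in the leptotene/zygotene libraries, against 23.2 and 17.6 FPKM in pre-meiotic material. Akap4, the main protein of the fibrous sheath and a gene of the X chromosome, had 1850 and 2246 FPKM in the leptotene/zygotene libraries, against 2.63 and 2.72 FPKM in pre-meiotic material. Acrv1 of the acrosome had 252 and 184 FPKM in the leptotene/zygotene libraries, against 0.234 and 0.158 FPKM in pre-meiotic material. For each of these genes the lowest leptotene/zygotene value was far above the highest pre-meiotic one.

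The 2 members nearest to 0 were still higher. Cst8, a cystatin, had 350 and 412 FPKM in the leptotene/zygotene libraries, against 28.5 and 27.0 FPKM in pre-meiotic material. Klhl10, an adaptor of a ubiquitin ligase in spermatids, had 332 and 351 FPKM in the leptotene/zygotene libraries, against 22.7 and 23.7 FPKM in pre-meiotic material.

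Spermatid transcripts were low but present in the pre-meiotic libraries. Among 11 spermatid genes with a mean of 2000 FPKM or more in the leptotene/zygotene libraries, the pre-meiotic mean was 0.101% to 1.46% of the leptotene/zygotene mean, with a median of 0.138%. The highest value is that of Odf2, which codes for an outer dense fibre protein and is also part of the centrosome. For Smcp, a capsule protein of sperm mitochondria, the levels were 5900 and 7065 FPKM in the leptotene/zygotene libraries and 6.85 and 9.46 FPKM in pre-meiotic material, and it was listed at 0 at day 3. The source of these low levels was not tested.

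Of 28 pachytene genes, 26 were higher and none was lower, with a median log2 ratio of 6.05. Ldhc, the lactate dehydrogenase of germ cells, had 4507 and 4116 FPKM in the leptotene/zygotene libraries, against 13.1 and 10.6 FPKM in pre-meiotic material. Tcp11, a gene of sperm function, had 3238 and 3658 FPKM in the leptotene/zygotene libraries, against 8.01 and 7.35 FPKM in pre-meiotic material. Ybx2, a germ cell protein that binds and stores mRNA, had 2342 and 2581 FPKM in leptotene/zygotene, against 23.6 and 22.1 FPKM in pre-meiotic material.

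Regulators of that programme differed less. Crem, the activator of many spermatid genes, had 382 and 389 FPKM in the leptotene/zygotene libraries, against 18.2 and 17.8 FPKM in pre-meiotic material. Mybl1, a master regulator of pachytene transcription and piRNA genes, had 23.7 and 20.8 FPKM in the leptotene/zygotene libraries, against 15.2 and 12.8 FPKM in pre-meiotic material, and did not reach 2-fold. Zfp42 was the other gene that met neither rule, with 2.98 and 2.31 FPKM in leptotene/zygotene, against 3.54 and 2.03 FPKM in pre-meiotic material.

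**Figure D2:**
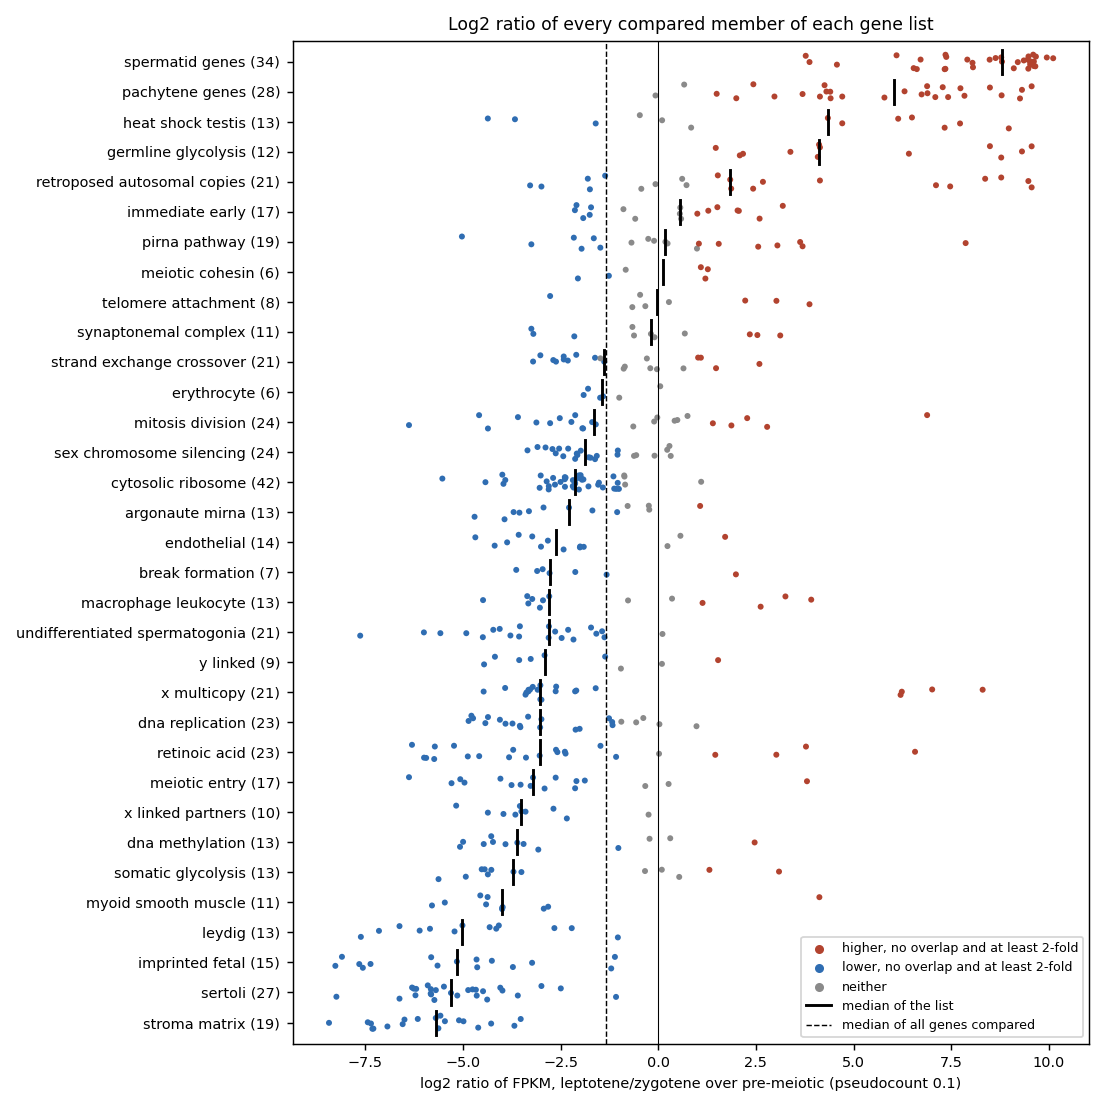
Log2 ratio of FPKM, leptotene/zygotene over pre-meiotic, for each compared member of 33 gene lists, ordered by the list median (black bar); red points are higher, blue points lower and grey points neither, and the dashed line is the median of all 20339 genes at -1.34. Spermatid genes lie farthest right with a median of 8.79 and stroma genes farthest left with a median of -5.70. The synaptonemal complex, cohesin and telomere attachment lists sit near 0 with members on both sides. Strand exchange and crossover genes have a median of -1.38 and break formation genes one of -2.78.

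Genes that act when meiosis begins were lower. Of 17 genes of meiotic entry, 14 were lower and 1 was higher, with a median log2 ratio of -3.21. Stra8, the retinoic acid target that meiosis needs (chromosome 6, 34870162 to 34889342 in the tables' build), had 8.36 and 6.43 FPKM in the leptotene/zygotene libraries, against 124 and 78.6 FPKM in pre-meiotic material. Kit, the receptor of differentiating spermatogonia, had 4.10 and 2.76 FPKM in the leptotene/zygotene libraries, against 54.9 and 61.1 FPKM in pre-meiotic material. Dazl, an RNA-binding protein that licenses germ cells for meiosis, had 22.5 and 21.4 FPKM in leptotene/zygotene, against 233 and 174 FPKM in pre-meiotic material. The pre-meiotic libraries were high in all of these genes and did not overlap with the others.

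Sohlh1, Dmrt1, Lin28a and Ccnd2, which act in spermatogonia, had the 4 lowest log2 ratios of that list, from -6.38 for Ccnd2 to -4.96 for Dmrt1. Esx1 overlapped, with 24.6 and 15.5 FPKM in leptotene/zygotene, against 31.9 and 18.7 FPKM in pre-meiotic material. Meioc (Gm1564 in the tables), a partner that prolongs meiotic prophase, overlapped too, with 35.9 and 32.5 FPKM in leptotene/zygotene, against 37.5 and 19.4 FPKM in pre-meiotic material. The 1 higher gene was Dmrtb1, a regulator of the switch from mitosis to meiosis, with 445 and 439 FPKM in leptotene/zygotene, against 35.7 and 27.2 FPKM in pre-meiotic material.

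Of 21 genes of undifferentiated spermatogonia, 20 were lower and none was higher, with a median log2 ratio of -2.81. Zbtb16, a repressor that keeps spermatogonial stem cells, had 0.711 and 0.927 FPKM in the leptotene/zygotene libraries, against 19.6 and 21.5 FPKM in pre-meiotic material. Itga6, an integrin of the stem cell surface that somatic cells carry too, had 1.05 and 1.38 FPKM in leptotene/zygotene, against 78.5 and 89.97 FPKM in pre-meiotic material. Id4, a mark of stem cells, was the exception, with 4.40 and 4.49 FPKM in leptotene/zygotene, against 3.30 and 4.93 FPKM in pre-meiotic material.

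Break formation was lower in 6 of its 7 compared genes, with a median log2 ratio of -2.78, against -1.34 over all genes. Prdm9, which marks the sites of meiotic breaks, had 4.90 FPKM in each leptotene/zygotene library, against 29.0 and 14.4 FPKM in pre-meiotic material. Zcwpw1, a reader of those marks, had 13.0 and 12.3 FPKM in leptotene/zygotene, against 126 and 92.7 FPKM in pre-meiotic material. Rec114 (2410076I21Rik in the tables), a partner of the cutting enzyme, had 2.16 and 1.49 FPKM in leptotene/zygotene, against 13.9 and 12.4 FPKM in pre-meiotic material.

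Hells, a chromatin remodeller that acts with Prdm9 and also in dividing cells, had the lowest ratio of the list at -3.64. Mei1 was lower too, at 2.71 and 2.91 FPKM in leptotene/zygotene against 7.95 and 6.39 FPKM in pre-meiotic material, but no longer reached 2-fold after median-ratio scaling, at a log2 ratio of -0.24. Spo11, the enzyme that cuts the DNA, went the other way. It had 11.01 and 11.97 FPKM in the leptotene/zygotene libraries, against 4.11 and 1.53 FPKM in pre-meiotic material. Its pachytene level, 57.4 and 61.4 FPKM, was above both.

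Strand exchange and crossover genes were divided. Of 21 compared, 10 were lower, 4 were higher and 7 were neither, with a median log2 ratio of -1.38, close to that of all genes. After median-ratio scaling 6 were lower and 6 were higher. Dmc1, the meiotic strand exchange protein, had 3.02 and 3.73 FPKM in the leptotene/zygotene libraries, against 24.1 and 12.9 FPKM in pre-meiotic material. Tex11, an X-linked crossover protein, had 5.82 and 5.44 FPKM in leptotene/zygotene, against 54.5 and 38.1 FPKM in pre-meiotic material.

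On the other side stood Psmc3ip, a helper of strand invasion, with 117 and 108 FPKM in leptotene/zygotene, against 18.8 and 18.4 FPKM in pre-meiotic material. Its partner protein is Mnd1, which was lower, with 0.545 and 0.750 FPKM in leptotene/zygotene, against 4.36 and 4.61 FPKM in pre-meiotic material. Hfm1, a crossover helicase, overlapped, with 6.69 and 6.00 FPKM in leptotene/zygotene, against 9.31 and 5.33 FPKM in pre-meiotic material. Msh5 overlapped as well, with 4.08 and 7.94 FPKM in leptotene/zygotene, against 6.90 and 5.41 FPKM in pre-meiotic material.

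The synaptonemal complex list had 3 genes higher, 3 lower and 5 neither of 11 compared. Its median log2 ratio of -0.19 turned to 0.92 after median-ratio scaling, so its direction depends on the scaling. Members of the central element were higher. Syce1 had 293 and 291 FPKM in the leptotene/zygotene libraries, against 38.6 and 28.3 FPKM in pre-meiotic material. Syce2 had 385 and 475 FPKM in leptotene/zygotene, against 78.9 and 69.0 FPKM in pre-meiotic material. Syce3 (1700007E06Rik in the tables) had 121 and 74.96 FPKM in leptotene/zygotene, against 24.6 and 13.7 FPKM in pre-meiotic material. Tex12 belongs to the same element and was lower, with 6.61 and 6.87 FPKM in leptotene/zygotene, against 40.8 and 19.7 FPKM in pre-meiotic material.

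Genes of the axis and the transverse filament met neither rule. Sycp3, the axis protein, had 72.0 and 56.6 FPKM in the leptotene/zygotene libraries, against 95.1 and 51.3 FPKM in pre-meiotic material. Sycp1, the transverse filament, had 28.3 and 24.4 FPKM in leptotene/zygotene, against 49.3 and 34.2 FPKM in pre-meiotic material, below without overlap but under 2-fold. Hormad1, which marks unsynapsed axes, overlapped at 14.3 and 11.1 FPKM in leptotene/zygotene against 16.6 and 10.5 FPKM in pre-meiotic material. The pair of pre-meiotic libraries was itself uneven for Sycp3, at q = 1.21e-10 in the authors' deposited table. Between those columns 4 of 11 compared genes of this list had q of 0.05 or less there. The same held for 4 of 21 strand exchange and crossover genes, 2 of 7 break formation genes and 7 of 17 meiotic entry genes, against 1.26% of all genes tested. The summed FPKM of each of these lists was higher in pre-meiotic library 1 than in library 2, and the cause was not tested. Trip13, which removes Hormad proteins, and Fkbp6, a co-chaperone, were lower, with log2 ratios of -3.20 and -3.25.

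Among 6 cohesin genes, 3 were higher and 2 lower. Rec8, the meiotic kleisin, had 67.7 and 53.2 FPKM in the leptotene/zygotene libraries, against 28.9 and 21.1 FPKM in pre-meiotic material. Stag3 had 265 and 257 FPKM in leptotene/zygotene, against 130 and 96.5 FPKM in pre-meiotic material. Smc1b had 122 and 101 FPKM in leptotene/zygotene, against 62.7 and 42.1 FPKM in pre-meiotic material, and leaving out leptotene/zygotene library 1 or pre-meiotic library 2 brought its log2 ratio to 0.95 or 0.83, under the limit. None of the 3 reached 2-fold when every column was set to the same sum, with log2 ratios of 0.81 for Rec8, 0.74 for Stag3 and 0.63 for Smc1b. Rad21l, the kleisin of early prophase, was lower, with 1.64 and 1.51 FPKM in leptotene/zygotene, against 7.81 and 5.94 FPKM in pre-meiotic material. After median-ratio scaling its log2 ratio was -0.99, just under the limit, and 3 genes of the list were higher and none was lower.

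Telomere attachment tethers chromosome ends to the nuclear envelope so that homologues can find each other. Of 8 such genes 3 were higher and 1 was lower, with a median log2 ratio of -0.03 that turned to 1.07 after median-ratio scaling. Spdya, an activator of Cdk2 at telomeres, had 64.0 and 65.5 FPKM in leptotene/zygotene, against 5.80 and 2.85 FPKM in pre-meiotic material. Ccdc155, the motor adaptor of the envelope, had 40.6 and 33.8 FPKM in leptotene/zygotene, against 6.16 and 2.81 FPKM in pre-meiotic material. Cdk2 was the lower gene, with 9.11 and 9.81 FPKM in leptotene/zygotene, against 65.7 and 64.4 FPKM in pre-meiotic material, and it also serves dividing cells.

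**Figure D3:**
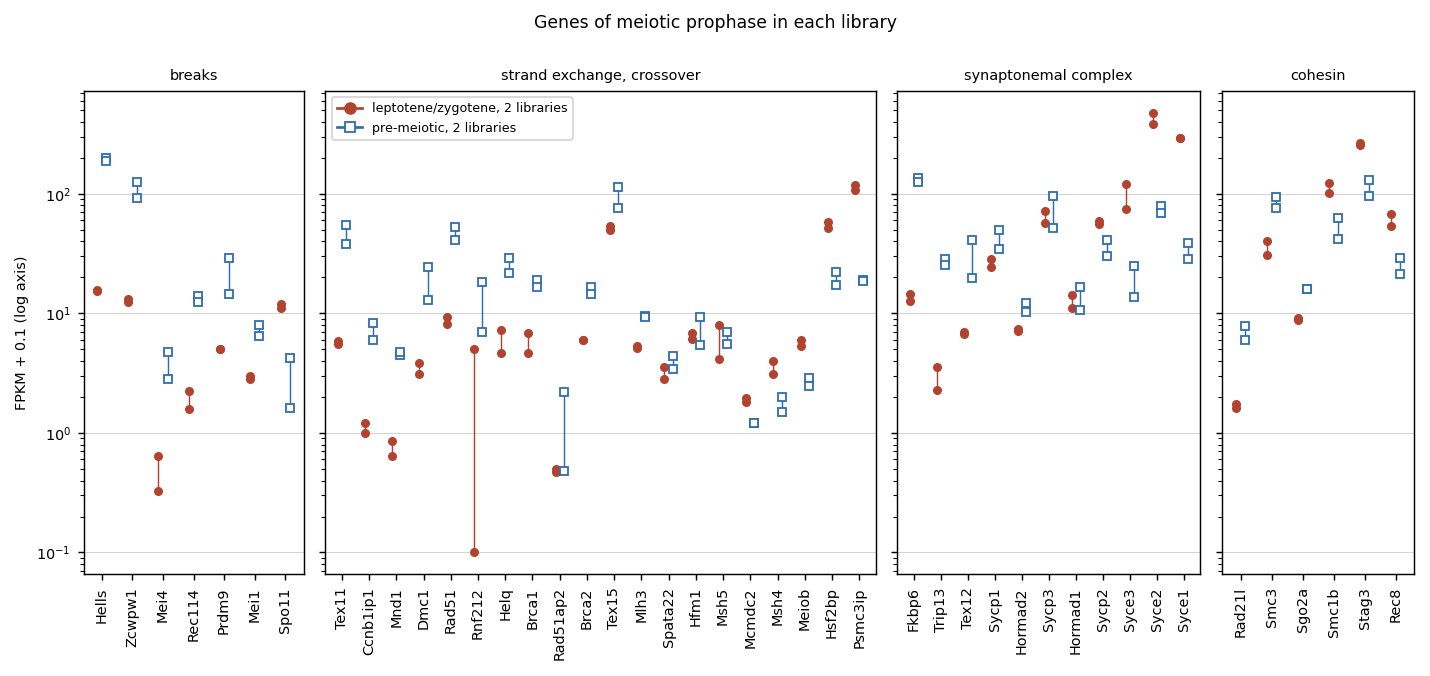
FPKM plus 0.1 (log axis) of the compared genes reported here of break formation, strand exchange and crossover, the synaptonemal complex and cohesin, with leptotene/zygotene libraries as red circles left of pre-meiotic libraries as open blue squares, and a line joining the libraries of a stage. In break formation only Spo11 has its red points above the blue ones, while Syce1, Syce2, Syce3, Rec8, Stag3, Smc1b, Psmc3ip and Hsf2bp are among those above in the other panels.

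Promoters are shown for genes of the prophase, Sertoli and spermatid lists, so that the letters in front of genes that differed in opposite directions can be compared. The sequences are those of RefSeq on GRCm38.p6, from 250 bases before to 50 bases after the start, and capitals mark the letters searched on both strands: TCCCGC, the core bound by E2F6, CACGTG, an E-box, TGACGTCA, a cyclic AMP response element, CAGTTG, a core bound by MYB, and TGACTCA, an AP-1 site. An E-box can share letters with a cyclic AMP response element, but no matches overlapped in the 8 promoters printed. Among genes with a promoter entry, Hells, Fkbp6 and Trip13 had ratios farthest from 0 in the prophase lists plotted above, and Inhbb and Fshr in the Sertoli list, while Smc1b, Prm2 and Tnp1 were added after their values were seen.
Hells, chr19:38930740-38931039, plus strand: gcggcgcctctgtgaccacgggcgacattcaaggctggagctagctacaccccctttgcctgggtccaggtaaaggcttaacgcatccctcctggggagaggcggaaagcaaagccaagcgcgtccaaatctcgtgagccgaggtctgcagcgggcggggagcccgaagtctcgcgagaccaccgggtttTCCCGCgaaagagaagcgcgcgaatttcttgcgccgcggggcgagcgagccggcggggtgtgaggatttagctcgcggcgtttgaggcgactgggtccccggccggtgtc
Fkbp6, chr5:135349995-135350294, minus strand: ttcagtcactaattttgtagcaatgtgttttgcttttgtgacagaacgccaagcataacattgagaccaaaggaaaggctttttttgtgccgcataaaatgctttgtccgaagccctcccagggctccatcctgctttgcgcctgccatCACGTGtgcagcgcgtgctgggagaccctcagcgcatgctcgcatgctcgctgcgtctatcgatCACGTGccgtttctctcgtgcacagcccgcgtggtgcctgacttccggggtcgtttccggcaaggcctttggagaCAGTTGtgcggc
Trip13, chr13:73937718-73938017, minus strand: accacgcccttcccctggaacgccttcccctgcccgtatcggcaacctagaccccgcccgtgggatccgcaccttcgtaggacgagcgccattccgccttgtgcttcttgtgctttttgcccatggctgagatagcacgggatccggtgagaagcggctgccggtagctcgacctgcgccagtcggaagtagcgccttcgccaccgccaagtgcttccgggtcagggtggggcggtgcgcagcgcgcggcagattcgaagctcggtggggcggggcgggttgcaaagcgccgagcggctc
Smc1b, chr15:85131908-85132207, minus strand: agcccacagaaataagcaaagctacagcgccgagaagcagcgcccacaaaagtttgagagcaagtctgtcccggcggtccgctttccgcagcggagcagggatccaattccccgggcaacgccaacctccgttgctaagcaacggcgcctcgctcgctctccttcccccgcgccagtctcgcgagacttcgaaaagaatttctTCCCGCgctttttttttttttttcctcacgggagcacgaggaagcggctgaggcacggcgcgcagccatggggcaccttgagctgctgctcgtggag
Inhbb, chr1:119422199-119422498, minus strand: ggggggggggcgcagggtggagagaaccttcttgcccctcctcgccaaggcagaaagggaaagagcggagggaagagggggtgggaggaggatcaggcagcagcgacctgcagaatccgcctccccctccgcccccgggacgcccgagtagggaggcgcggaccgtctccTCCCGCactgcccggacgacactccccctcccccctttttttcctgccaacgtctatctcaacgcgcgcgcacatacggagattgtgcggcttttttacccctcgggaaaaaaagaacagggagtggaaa
Fshr, chr17:89200626-89200925, minus strand: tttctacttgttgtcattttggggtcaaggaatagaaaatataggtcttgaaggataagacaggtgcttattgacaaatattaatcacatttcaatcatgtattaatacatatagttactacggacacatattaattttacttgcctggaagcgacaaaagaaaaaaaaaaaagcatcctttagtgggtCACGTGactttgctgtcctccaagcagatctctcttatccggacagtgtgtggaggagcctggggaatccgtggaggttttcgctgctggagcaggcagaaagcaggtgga
Prm2, chr16:10792056-10792355, minus strand: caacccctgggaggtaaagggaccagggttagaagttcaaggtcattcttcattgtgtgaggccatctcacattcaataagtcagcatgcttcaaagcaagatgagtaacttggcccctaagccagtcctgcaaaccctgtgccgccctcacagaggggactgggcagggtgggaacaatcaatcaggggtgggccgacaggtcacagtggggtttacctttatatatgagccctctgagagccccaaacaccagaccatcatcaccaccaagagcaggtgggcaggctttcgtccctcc
Tnp1, chr1:73015850-73016149, minus strand: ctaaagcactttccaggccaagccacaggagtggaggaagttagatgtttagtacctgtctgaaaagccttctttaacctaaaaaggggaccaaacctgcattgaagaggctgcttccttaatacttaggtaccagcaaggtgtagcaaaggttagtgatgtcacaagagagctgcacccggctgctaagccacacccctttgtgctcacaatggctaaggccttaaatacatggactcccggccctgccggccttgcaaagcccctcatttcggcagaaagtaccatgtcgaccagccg
Hells, Smc1b and Inhbb held the E2F6 core, Fkbp6 held 2 E-boxes and a MYB core, and Fshr held an E-box. Trip13, Prm2 and Tnp1 held none of the letters searched in this window.

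Over all 27025 promoters with an entry, 20.02% held the E2F6 core, 13.6% the MYB core, 5.17% the AP-1 site and 1.88% the cyclic AMP response element. Among the 13137 compared genes with an entry, which are 64.6% of those compared, 32.01% held the E2F6 core. The E2F6 core stood in 5 of 6 cohesin genes, 3 of 6 break formation genes and 5 of 11 synaptonemal complex genes, against 3 of 29 spermatid genes. The E-box stood in 5 of 11 synaptonemal complex genes and in 0 of 29 spermatid genes, against 7.24% of all promoters and 9.42% of those of compared genes. The ratio of observed to expected CpG pairs had a median of 0.147 in the spermatid promoters, 0.863 in the cohesin promoters and 0.704 in the synaptonemal complex promoters, against 0.389 in all and 0.713 in those of compared genes. The synaptonemal complex value was thus close to that of compared genes. The same check over all higher and all lower genes is void, because 65.1% and 66.9% of them had a promoter entry. The values given for compared genes carry the same limit, since 64.6% of those had an entry.

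Many enzymes have a testis-expressed copy beside a widely expressed one, and the libraries differed by copy. Of 28 such pairs, 18 had the testis-expressed copy higher and the widely expressed copy lower. In 27 of 28 pairs the testis-expressed copy had the higher ratio, and the median difference within a pair was 6.94 on the log2 scale. The pairs were compiled with results of these data known, so the count is a description.

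Several steps of glycolysis differed by copy. Pgk2, a phosphoglycerate kinase, had 1212 and 1380 FPKM in the leptotene/zygotene libraries, against 1.51 and 1.73 FPKM in pre-meiotic material. Its X-linked partner Pgk1 had 2.09 and 1.62 FPKM in leptotene/zygotene, against 23.3 and 20.9 FPKM in pre-meiotic material. Of the FPKM of both copies, Pgk2 held 99.9% in leptotene/zygotene and 6.82% in pre-meiotic material. Gapdhs, the dehydrogenase bound to the sperm tail, had 1802 and 2109 FPKM in leptotene/zygotene, against 3.26 and 2.69 FPKM in pre-meiotic material. Gapdh had 2.06 and 1.27 FPKM in leptotene/zygotene, against 36.8 and 31.3 FPKM in pre-meiotic material, and its many processed copies make that level uncertain.

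All 12 genes of a list compiled for germline glycolysis were higher, with a median log2 ratio of 4.13. The list also holds Tpi1 and Gpi1, its members nearest to 0, which are not testis-expressed copies of the pairs above. Its count is therefore not one of testis-expressed copies alone. Of 13 genes of the somatic form, 8 were lower and 2 were higher, with a median of -3.71. The higher ones were Ldha, with 405 and 395 FPKM in leptotene/zygotene against 46.4 and 47.3 FPKM in pre-meiotic material, and Pfkm. Aldoa overlapped, with 237 and 235 FPKM in leptotene/zygotene, against 210 and 233 FPKM in pre-meiotic material. Ldhb, the heart form of lactate dehydrogenase, had the lowest ratio, with 6.61 and 8.62 FPKM in leptotene/zygotene, against 377 and 385 FPKM in pre-meiotic material.

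Other complexes differed by copy too. Hspa2, the chaperone of spermatocytes, had 569 and 475 FPKM in leptotene/zygotene, against 21.0 and 18.7 FPKM in pre-meiotic material. Hspa8 had 39.2 and 46.8 FPKM in leptotene/zygotene, against 808 and 965 FPKM in pre-meiotic material. In the ribosome, Rpl39l had 520 and 525 FPKM in leptotene/zygotene, against 82.6 and 80.3 FPKM in pre-meiotic material, and its X-linked partner Rpl39 had 2.79 and 1.83 FPKM in leptotene/zygotene, against 90.04 and 83.8 FPKM in pre-meiotic material.

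Other pairs did not differ that way. Taf7l, the X-linked subunit of a general transcription factor, was lower together with Taf7, and Slc25a31, a carrier of ADP and ATP, was lower together with Slc25a5. Cstf2t was lower, with 7.64 and 8.20 FPKM in leptotene/zygotene, against 25.9 and 27.9 FPKM in pre-meiotic material, and Cstf2 overlapped. Tbpl1, Ldhc and Pabpc2 were higher together with Tbp, Ldha and Pabpc1. Pabpc1, Actb and Tuba1b each belong to a family with closely similar members, so reads may have been divided within a family.

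**Figure D4:**
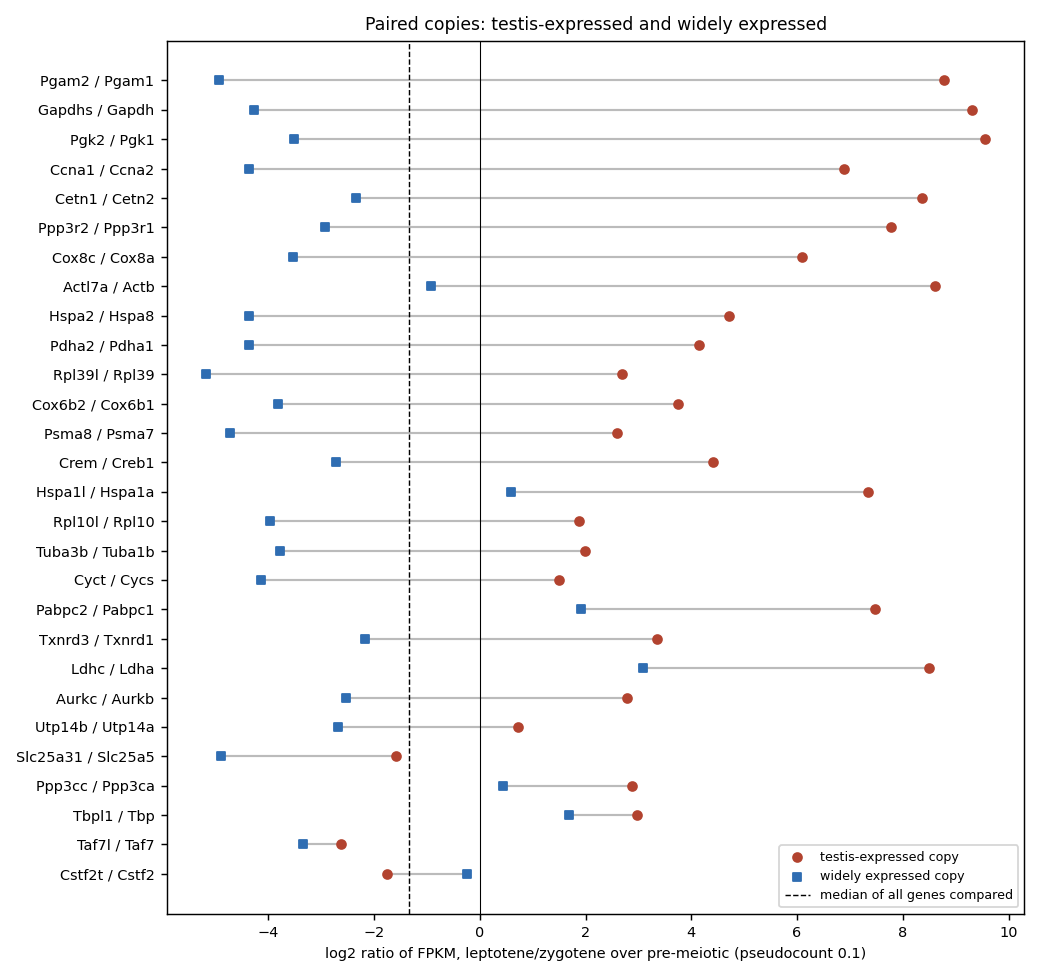
Log2 ratio of FPKM, leptotene/zygotene over pre-meiotic, for the testis-expressed copy (red circle) and the widely expressed copy (blue square) of 28 gene pairs, joined by a line and ordered by their difference; the dashed line is the median of all genes at -1.34. The red point lies right of the blue one in 27 of 28 pairs, and Cstf2t / Cstf2 at the bottom is the exception.

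Heat shock genes divided in the same manner. Of 13, 7 were higher and 3 lower, with a median log2 ratio of 4.34. Hspb9 had 814 and 1011 FPKM in leptotene/zygotene, against 1.86 and 1.56 FPKM in pre-meiotic material. Hspa1l had 427 and 534 FPKM in leptotene/zygotene, against 2.93 and 2.84 FPKM in pre-meiotic material. Hsp90ab1, the constitutive partner of the HSP90 family, had 184 and 157 FPKM in leptotene/zygotene, against 2150 and 2191 FPKM in pre-meiotic material.

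The piRNA pathway, which silences transposons with small RNAs, had 7 genes higher, 6 lower and 6 neither of 19. Its median of 0.18 turned to -0.27 when every column was set to the same sum, and median-ratio scaling gave 1.25, with 10 higher and 3 lower. Tdrd6, a scaffold of the germ cell granule called the chromatoid body, had 443 and 409 FPKM in leptotene/zygotene, against 2.56 and 0.877 FPKM in pre-meiotic material. Piwil1, the PIWI protein of pachytene and later cells, had 37.2 and 24.8 FPKM in leptotene/zygotene, against 2.30 FPKM in each pre-meiotic library. Its pachytene level was 202 and 215 FPKM. Piwil4, the PIWI protein of fetal germ cells, was lower, with 0.192 FPKM and a listed 0 in leptotene/zygotene, against 5.81 and 6.77 FPKM in pre-meiotic material.

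Genes of the microRNA pathway were mostly lower, 9 of 13, with 1 higher and a median log2 ratio of -2.28, against -1.34 over all genes. Dicer1, which cuts microRNA precursors, had 2.13 and 1.23 FPKM in leptotene/zygotene, against 47.9 and 44.5 FPKM in pre-meiotic material. Among the Argonautes, Ago1 (Eif2c1) had 0.985 and 1.57 FPKM in leptotene/zygotene, against 17.9 and 17.8 FPKM in pre-meiotic material. Ago2 (Eif2c2) had 0.913 and 0.671 FPKM in leptotene/zygotene, against 8.94 and 8.56 FPKM in pre-meiotic material. Ago3 (Eif2c3) had 3.33 and 3.605 FPKM in leptotene/zygotene, against 9.38 and 13.4 FPKM in pre-meiotic material. Ago4 was the only one of the 4 whose stages overlapped. The libraries of a stage differ in the Ago4 genotype itself, so its overlap cannot be read as a steady level across stages. The higher gene was Tarbp2, a partner of Dicer1, with 154 and 170 FPKM in leptotene/zygotene, against 79.8 and 74.1 FPKM in pre-meiotic material.

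The somatic cells of the testis were represented mainly in pre-meiotic material. All 27 Sertoli genes were lower, with a median log2 ratio of -5.31. Clu, a secreted chaperone, had 51.7 and 35.4 FPKM in the leptotene/zygotene libraries, against 1915 and 2001 FPKM in pre-meiotic material. Wt1, a factor that maintains Sertoli cells, had 2.80 and 2.60 FPKM in leptotene/zygotene, against 145 and 153 FPKM in pre-meiotic material. Fshr, the receptor of follicle-stimulating hormone, had 0.0849 and 0.156 FPKM in leptotene/zygotene, against 14.0 and 18.2 FPKM in pre-meiotic material. The exception in size was Tjp1, a junction protein of many cells, with a log2 ratio of -1.08 that turned to 0.02 after median-ratio scaling.

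All 13 Leydig genes were lower, with a median of -5.01. Hsd3b1, an enzyme of steroid synthesis, had 0.605 and 0.487 FPKM in leptotene/zygotene, against 117 and 136 FPKM in pre-meiotic material. Insl3, a Leydig hormone, differed less, with 7.70 and 6.62 FPKM in leptotene/zygotene, against 43.6 and 47.9 FPKM in pre-meiotic material. All 19 stroma and matrix genes were lower, with a median of -5.70. Col1a2, a chain of collagen I, had 1.47 and 4.05 FPKM in leptotene/zygotene, against 433 and 558 FPKM in pre-meiotic material. Fdx1, the least lower of the Leydig genes, turned from a log2 ratio of -1.03 to 0.06 after median-ratio scaling.

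Myoid and smooth muscle genes were lower in 10 of 11. Acta2, the smooth muscle actin, had 3.25 and 14.6 FPKM in leptotene/zygotene, against 385 and 413 FPKM in pre-meiotic material. The exception was Actg2, with 414 and 404 FPKM in leptotene/zygotene, against 20.9 and 25.8 FPKM in pre-meiotic material. No source names a strand step, so reads of an overlapping gene cannot be set apart. Of 14 endothelial genes 11 were lower and 1, Sox17, was higher.

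Imprinted genes of fetal growth were lower in 15 of 15, with a median of -5.16. Meg3, a non-coding RNA of the Dlk1 region, had 0.898 and 3.42 FPKM in leptotene/zygotene, against 407 and 448 FPKM in pre-meiotic material. Igf2, a fetal growth factor, had 1.90 and 1.19 FPKM in leptotene/zygotene, against 59.3 and 57.7 FPKM in pre-meiotic material. Cdkn1c, an inhibitor of the cell cycle, was near the limit with a log2 ratio of -1.11, and did not reach 2-fold after median-ratio scaling or without leptotene/zygotene library 2.

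Retinoid genes were lower in 18 of 23, with a median of -3.04, against -1.34 over all genes. They belong to several cell types, and Aldh1a1 and Cyp26b1 had the lowest ratios. Aldh1a1, a retinoic acid synthase of Sertoli cells, had 4.65 and 8.08 FPKM in leptotene/zygotene, against 473 and 550 FPKM in pre-meiotic material. Cyp26b1, which degrades retinoic acid, had 0.469 and 1.49 FPKM in leptotene/zygotene, against 64.3 and 73.1 FPKM in pre-meiotic material. Aldh1a2, the synthase of spermatocytes, overlapped, with 45.0 and 45.7 FPKM in leptotene/zygotene, against 51.7 and 37.7 FPKM in pre-meiotic material.

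Retinoid genes higher in leptotene/zygotene were Bcmo1, Rdh11, Lrat and Rxrg. Rdh11, a retinal reductase, had 170 and 167 FPKM in leptotene/zygotene, against 12.0 and 12.3 FPKM in pre-meiotic material. Bcmo1, which cleaves carotene, had 24.5 and 20.5 FPKM in leptotene/zygotene, against 0 and 0.274 FPKM in pre-meiotic material.

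Genes of DNA replication were lower in 18 of 23, and none was higher as deposited. After median-ratio scaling 14 were lower and 2 were higher. Mcm2, part of the replicative helicase, had 2.49 and 1.80 FPKM in leptotene/zygotene, against 68.9 and 61.0 FPKM in pre-meiotic material. Gins1, another helicase subunit, overlapped, with 21.1 and 27.6 FPKM in leptotene/zygotene, against 29.1 and 18.6 FPKM in pre-meiotic material. Fen1, which trims Okazaki fragments, was above without overlap but under 2-fold, with 78.1 and 80.6 FPKM in leptotene/zygotene, against 39.8 and 40.6 FPKM in pre-meiotic material.

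Genes of cell division lay on both sides. Of 24, 13 were lower and 5 were higher, near the shares of 52.5% and 25.2% over all genes. Ccnd2 and Cdk4, which act before replication, had log2 ratios of -6.38 and -4.59. Ccna1, the A-type cyclin of spermatocytes, had 129 and 143 FPKM in leptotene/zygotene, against 1.08 and 1.03 FPKM in pre-meiotic material. Aurka, a kinase of the spindle, had 112 and 143 FPKM in leptotene/zygotene, against 24.9 and 27.5 FPKM in pre-meiotic material. Ccnb1, a cyclin of entry into division, overlapped, with 26.6 and 33.6 FPKM in leptotene/zygotene, against 31.6 and 33.1 FPKM in pre-meiotic material. After median-ratio scaling the list had 10 higher and 9 lower genes.

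Ribosomal protein genes were lower in 38 of 42, with none higher and a median of -2.13, against -1.34 over all genes. After median-ratio scaling 22 of 42 were lower. Rps4x on the X chromosome had the lowest ratio, with 3.45 and 7.67 FPKM in leptotene/zygotene, against 248 and 274 FPKM in pre-meiotic material. Rps24 was below without overlap but under 2-fold, with 254 and 318 FPKM in leptotene/zygotene, against 540 and 503 FPKM in pre-meiotic material. Processed copies of these genes leave their levels uncertain.

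Genes of DNA methylation were lower in 10 of 13, with a median of -3.61, against -1.34 over all genes. The list is not one of enzymes alone, and its members nearest to 0 were Mbd2 and Mbd3. Dnmt3a, a methyltransferase that sets new marks, had 1.15 and 0.901 FPKM in leptotene/zygotene, against 35.3 and 36.2 FPKM in pre-meiotic material. Tet3, which oxidizes methylated cytosine, had 0.827 and 0.440 FPKM in leptotene/zygotene, against 24.2 and 25.1 FPKM in pre-meiotic material. The higher gene was Dnmt3l, the inactive partner of the methyltransferases, with 8.57 and 6.26 FPKM in leptotene/zygotene, against 1.71 and 0.809 FPKM in pre-meiotic material.

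The X and Y chromosomes had lower medians than any autosome. In spermatocytes the X and Y chromosomes are silenced in the sex body during pachytene. The median log2 ratio was -2.18 over 1214 X-linked genes, against -1.30 over 19109 autosomal genes. Lower genes made up 59.1% of the X-linked genes and 52.0% of the autosomal genes, and higher genes made up 25.9% and 25.2% of them. After median-ratio scaling the lower shares were 49.0% and 37.7%, and the higher shares were 30.1% and 33.8%. The order of the higher shares thus depends on the scaling. The autosomes ranged from -1.61 on chromosome 10 to -0.68 on chromosome 14, so X lay outside them. The Y chromosome had a median of -3.09 over 16 genes. No test of these medians was made, since genes of a chromosome are not independent.

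Akap4 led the higher X-linked genes with a log2 ratio of 9.53. Among 21 multicopy or testis-restricted X-linked genes, 17 were lower and 4 were higher. The list does not hold all such genes, and others outside it were higher, such as Ssxb2, Cypt3 and Tgif2lx1. The higher ones were Tex13a, Fthl17a (1600014K23Rik in the tables), Ssxb1 and Slxl1. Tex13a had 94.3 and 108 FPKM in leptotene/zygotene, against 0.188 and 0.253 FPKM in pre-meiotic material. Xlr3a, of a lymphocyte-regulated family, had 0.529 and 0.393 FPKM in leptotene/zygotene, against 11.8 and 12.9 FPKM in pre-meiotic material. Members of such families share sequence, so their levels are uncertain.

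The list of X-linked partners of autosomal copies was lower in 9 of 10, with a median of -3.52. A list compiled for autosomal copies had 21 compared genes, 12 higher and 5 lower, with a median of 1.84. After median-ratio scaling 14 were higher and 2 lower. Not every member is autosomal or a copy of an X-linked gene, and Pgam2, for example, was paired with Pgam1 of chromosome 19. These counts therefore do not describe the copies of X-linked genes alone. On the Y chromosome, Ddx3y, an RNA helicase, had 1.16 and 1.25 FPKM in leptotene/zygotene, against 23.7 and 23.4 FPKM in pre-meiotic material. Zfy2, a zinc finger gene with a role in meiotic checkpoints, was higher, with 4.42 and 2.25 FPKM in leptotene/zygotene, against 1.202 and 0.972 FPKM in pre-meiotic material.

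Genes that silence the sex chromosomes at meiosis were lower in 18 of 24 as deposited, with none higher, and after median-ratio scaling 10 were lower and 3 were higher. Topbp1, an activator of the checkpoint kinase, had 6.53 and 5.92 FPKM in leptotene/zygotene, against 42.8 and 39.6 FPKM in pre-meiotic material. Scml2, a polycomb protein of germ cells, had 17.3 and 20.3 FPKM in leptotene/zygotene, against 151 and 128 FPKM in pre-meiotic material. Atr, the kinase itself, was above without overlap but under 2-fold, with 42.7 and 36.6 FPKM in leptotene/zygotene, against 36.1 and 28.8 FPKM in pre-meiotic material.

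**Figure D5:**
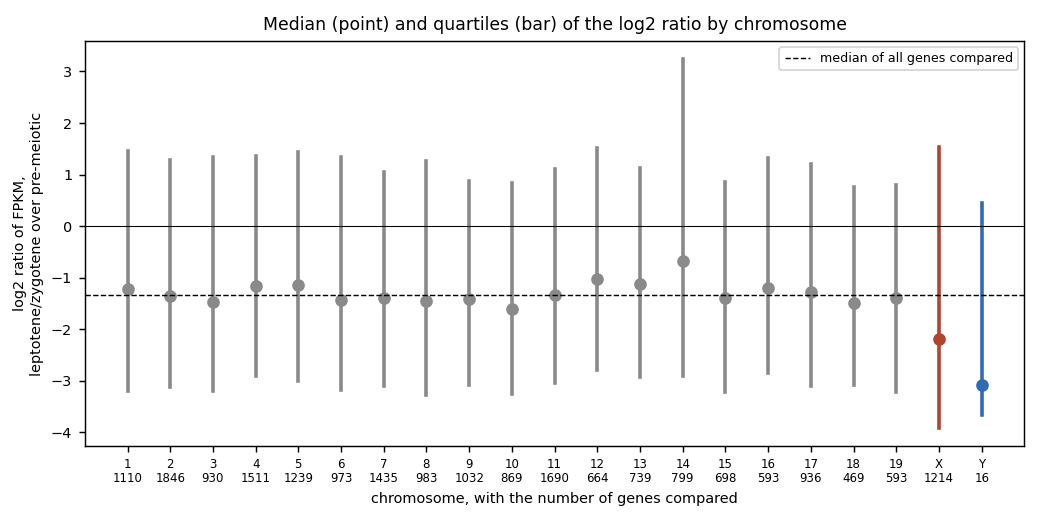
Median (point) and quartiles (bar) of the log2 ratio of FPKM, leptotene/zygotene over pre-meiotic, by chromosome, with the number of genes compared under each name; the dashed line is the median of all genes at -1.34. The X chromosome lies at -2.18 and the Y chromosome at -3.09, below the autosomes, which span -1.61 to -0.68.

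Blood, immune and early response genes depended on the library. Globin genes were lower in leptotene/zygotene, but unevenly. Hbb-b1 had 13.5 and 116 FPKM in the leptotene/zygotene libraries, against 127 and 218 FPKM in pre-meiotic material. In the authors' deposited table the leptotene/zygotene columns of Hba-a1 differed at q = 2.79e-10. Of 6 erythrocyte genes 4 were lower as deposited, 1 without leptotene/zygotene library 1 and none after median-ratio scaling. The globin copies share most of their sequence.

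Leukocyte genes were lower in 7 of 13 and higher in 4, near the shares of 52.5% and 25.2% over all genes. H2-Ab1, a class II chain of antigen presentation, had 6.90 and 41.5 FPKM in leptotene/zygotene, against 1.46 and 1.56 FPKM in pre-meiotic material. It was uneven in pachytene too, with 3.35 and 43.5 FPKM. Lyz2, a lysozyme of macrophages, was listed at 0 in leptotene/zygotene library 1 and had 1.81 FPKM in library 2, against 18.3 and 26.7 FPKM in pre-meiotic material.

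Early response genes, which switch on within minutes of a stimulus, had 7 higher and 5 lower of 17, and 3 higher without leptotene/zygotene library 2. After median-ratio scaling 10 were higher and 1 was lower. Fos had 13.9 and 40.4 FPKM in leptotene/zygotene, against 3.82 and 5.005 FPKM in pre-meiotic material. In the authors' deposited table its leptotene/zygotene columns differed at q = 2.88e-06. Zfp36, which destabilizes mRNA, had 12.4 and 43.8 FPKM in leptotene/zygotene, against 5.93 and 7.36 FPKM in pre-meiotic material, and its log2 ratio was 0.89 without library 2. Jun was lower, with 4.91 and 13.8 FPKM in leptotene/zygotene, against 34.2 and 37.1 FPKM in pre-meiotic material. Library 2 was above library 1 for Fos, Zfp36, Jun, H2-Ab1 and the globins alike. Muscle and matrix genes differed the same way. Between the leptotene/zygotene columns, 6 of 11 myoid genes and 3 of 19 stroma genes had q of 0.05 or less in the authors' deposited table, all higher in library 2, with q = 1.78e-07 for Acta2 and q = 4.19e-10 for Myh11. Both libraries stayed far below the pre-meiotic ones for Acta2, and the part of this in the stage difference was not tested.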

How the data were processed

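The FPKM values, and the q-values of each table's own pair of columns, were deposited by the authors. The submitters' processing notes name Bowtie 0.12.7, TopHat 1.3.0, Cufflinks 1.1.0 and Cuffdiff, and no source here gives the build. RNA was extracted with Trizol and made into TruSeq libraries, per the labels' protocols, which name no strand step, so reads of a gene and of one overlapping it on either strand cannot be separated.

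From the deposited tables, genes were joined by ID and filtered at 1 FPKM in any of 4 columns. The log2 ratio used a pseudocount of 0.1 FPKM. Folds are ratios of means and were left out where a stage was listed at 0. The calculation was tested on simulated data (Python 3.11, pandas). Gene names of 31840 IDs came from a reference table. Named genes were Ago4, the 15 highest and 15 lowest ratios with a mean of 5 FPKM or more, and per list up to 4 genes farthest from 0 and 2 nearest to it; other genes named were chosen after their values were seen. Members and lists were chosen with earlier results of these data known. A few items are not reported here, though list counts include them.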

Additional observations from a re-analysis of the deposited data

How the results depend on the processing

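Counts of higher and lower genes stayed within 1.5 times the reported 5129 and 10669 under every alternative run: other pseudocounts, floors and scalings, a stricter limit, fewer genes, and each column left out. Higher genes numbered from 3430 (only genes tested by the authors in both tables) to 6833 (median-ratio scaling), and lower genes from 7806 (median-ratio scaling) to 11831 (no floor). With each column left out in turn, 5173 to 5366 genes were higher and 10639 to 10885 lower, and 4818 and 10063 of the reported calls were kept in all 4. No gene called higher was called lower under any alternative, or the reverse.

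Directions turned in lists whose median is near 0. Median-ratio scaling gave 0.92 for the synaptonemal complex, 1.07 for telomere attachment, 0.074 for chromosome 12 and 0.39 for chromosome 14. It also turned Rxra to 0.013, Tjp1 to 0.022 and Fdx1 to 0.063. Upper-quartile scaling gave 0.52 for the synaptonemal complex, 0.66 for telomere attachment and 0.010 for chromosome 14. Setting every column to the same sum gave -0.33 for cohesin and -0.27 for the piRNA pathway. With single columns left out, the median ranged from -0.56 to 0.27 for the synaptonemal complex, -0.21 to 0.14 for telomere attachment (0.13 without leptotene/zygotene library 2), -0.0018 to 0.29 for cohesin, -0.15 to 0.34 for the piRNA pathway and -0.087 to 1.003 for early response genes. Of 212 named genes, 12 lost their call under median-ratio scaling beside the 3 that turned, and 19 gained one. Under upper-quartile scaling 12 lost their call and 4 gained one. Beyond the scaling itself, the cause was not tested.

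No paired analysis was possible because the columns carry no replicate number or genotype, and the result comes from no test. Depth is unknown, so low FPKM values carry an error that could not be given.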
